A study of Danio rerio with 3 samples.

Results

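Nuclear hormone receptors are transcription factors whose activity is set by small lipophilic molecules such as steroids, retinoids, thyroid hormone, vitamin D, oxysterols, bile acids and fatty acids. Most pair a zinc-finger DNA-binding domain with a ligand-binding domain, and many act as heterodimers in which a retinoid X receptor (RXR) is the shared partner of the receptors for retinoic acid, thyroid hormone, vitamin D, oxysterols, bile acids and fatty acids. In mammalian myeloid cells they are known for roles in granulocyte maturation, in the lipid handling of macrophages and in the response to glucocorticoids.

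The genes described here were chosen by symbol alone: those starting as NR-nomenclature names (nr, digit, letter, digit) or with rar, rxr, esr, esrr, thr, vdr, ror or ppar, leaving out 4 nr4a genes. That gave 57 of the 14428 genes in the deposited table. Of these, 55 are receptors. The other 2 carry a matching symbol but are not receptors: thrap3b, a thyroid hormone receptor-associated protein of transcription and RNA processing, and nr2c2ap, named as a partner protein of nr2c2.

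About 1000 untreated wild-type zebrafish embryos, aged 72 hours post fertilization and carrying both the mpeg1:mCherry and the mpx:EGFP transgene, gave the RNA. They were pooled, homogenized and sorted by flow cytometry into mCherry+ cells (mpeg1 promoter, which marks macrophages), EGFP+ cells (mpx promoter, which marks neutrophils) and double-negative cells, with more than 50000 cells each. The double-negative cells are therefore a mixture of every other cell type of the embryo, and all 3 groups share the genotype, the stage and the pool. There was 1 library per population, so values carry no error between replicates, no test of a difference was possible and p-values are not given.

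Levels are in FPKM, a fragment count divided by transcript length and by library size, and so can be set side by side between genes. Ratios are log2 of (FPKM + 1) in one library over the other, which understates differences of low genes, and "4-fold" means 2 or more on that scale. A gene entered the comparisons with an FPKM of 1 or more in any library, which 12285 genes and 52 of the 57 receptor symbols did. Read depth is unknown, since the table holds no counts. In bulk RNA, fewer cells of a type and less RNA per cell cannot be told apart.

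The sort was checked with marker lists. All 9 macrophage markers found were at least 4-fold higher in the mCherry+ library than in either other library, with a summed FPKM of 3576 in mCherry+, 27.6 in EGFP+ and 7.95 in double-negative cells. All 7 neutrophil markers were at least 4-fold higher in EGFP+ than in double-negative cells, with sums of 553 in mCherry+, 38003 in EGFP+ and 43.3 in double-negative cells. Of the 7, 6 were at least 4-fold lower in mCherry+ than in EGFP+ cells, all but csf3r (365 and 659). Against double-negative cells, 5 of the 7 were also at least 4-fold higher in mCherry+ cells. Markers of other tissues were present in both reporter libraries at lower sums: liver markers summed to 79.0, 161 and 2033 in mCherry+, EGFP+ and double-negative cells, neuronal markers to 71.8, 105 and 507, and erythroid markers to 161, 230 and 4164. Lens markers (8.96, 328 and 35.4) and skeletal muscle markers (3243, 4412 and 1678) stood highest in the EGFP+ library. No macrophage or neutrophil marker found was listed at 0. Of the liver markers ttr was listed at 0 in mCherry+ cells, of the erythroid markers hbbe3 in EGFP+ cells, and of the neuronal markers gap43 in all 3 libraries.

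As a group the receptor symbols were neither strongly raised nor strongly lowered in the reporter libraries, and a few members stood far from the rest. An FPKM of 1 was reached by 44 of the 57 in mCherry+ (77.2%, against 73.0% of all genes), by 41 in EGFP+ (71.9%, against 73.6%) and by 50 in double-negative cells (87.7%, against 80.0%). Members had a median FPKM of 5.91 in mCherry+, 3.68 in EGFP+ and 5.96 in double-negative cells, against 4.48, 4.62 and 5.69 over all genes in the table. The highest member in each library was nr1d2b, a REV-ERB repressor of the circadian clock, at 84.9 in mCherry+, 121 in EGFP+ and 64.4 in double-negative cells. Among the 52, 14 had their highest FPKM in the mCherry+ library (26.9%, against 26.4% of all tested genes), 15 had it in EGFP+ cells (28.8%, against 32.7%) and 23 in double-negative cells (44.2%, against 40.9%). These shares lay close to those of all tested genes.

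**Figure D1:**
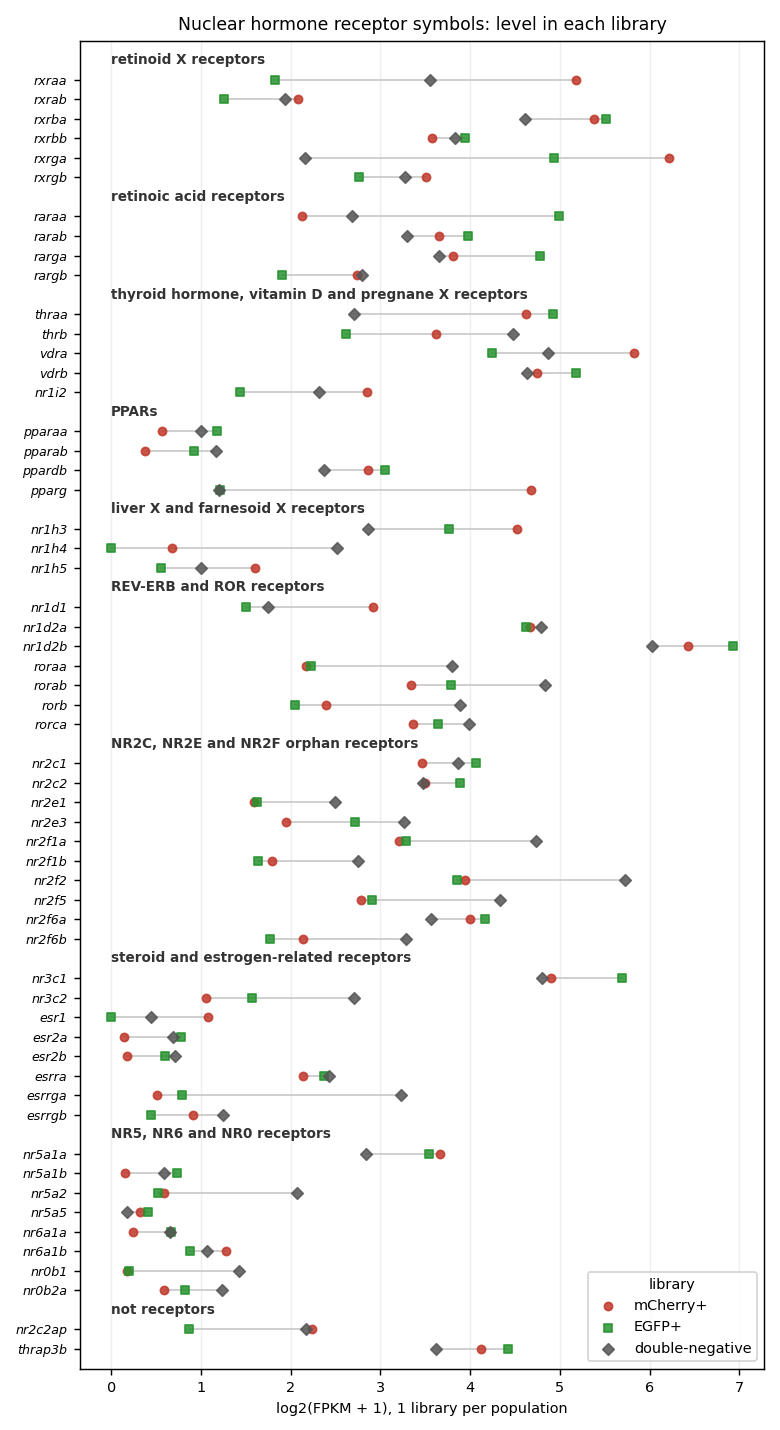
Level of each of the 57 genes as log2(FPKM + 1) on the horizontal axis, grouped by receptor class, with 1 point per library (circles mCherry+, squares EGFP+, diamonds double-negative) and a line spanning the 3 libraries. The widest spans belong to rxrga (73.2 in mCherry+, 29.5 in EGFP+, 3.45 in double-negative cells), pparg and rxraa.

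Against the double-negative library, 2 of 52 members were at least 4-fold higher in mCherry+ cells, rxrga and pparg (3.85%, against a background of 8.18% of all tested genes), and 1 was at least 4-fold lower, esrrga (1.92%, background 7.36%). In EGFP+ cells 3 were at least 4-fold higher, rxrga, raraa and thraa (5.77%, background 8.53%), and 2 at least 4-fold lower, esrrga and nr1h4 (3.85%, background 5.38%). At 2-fold, 6 members were higher (11.5%, background 19.9%) and 13 of the 52 lower (25.0%, background 24.1%) in mCherry+ cells. In EGFP+ cells 4 were higher at 2-fold (7.69%, background 21.2%) and 16 lower (30.8%, background 25.0%). As deposited, the shares past 4-fold were below the background in both comparisons and both directions. For the lower members this depended on the scaling. In EGFP+ cells the lower share was 11.5% against a background of 8.99% after median-ratio scaling, 11.5% against 8.36% after housekeeping scaling and 19.2% against 14.4% at the same FPKM sum. In mCherry+ cells it was 15.4% against 12.2% at the same FPKM sum. It stayed below the background there after median-ratio scaling (3.85% against 9.93%) and housekeeping scaling (1.92% against 8.64%). Relative to double-negative cells, the members had a median log2 ratio of -0.09 in mCherry+ cells (all tested genes -0.04) and of -0.43 in EGFP+ cells (all tested genes -0.05). Both comparisons use the same double-negative library.

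Scaling matters for members with small ratios. Rescaling by median ratios, by housekeeping genes or to the same FPKM sum shifted the median of all tested genes. The shifts were -0.30, -0.14 and -0.54 in mCherry+ relative to double-negative cells, -0.37, -0.33 and -0.72 in EGFP+ relative to double-negative cells, and 0.08, 0.16 and 0.18 between the reporter libraries. The share of all 4-fold calls that were higher was 52.6% in mCherry+ over double-negative cells as deposited and 38.6%, 45.4% and 29.1% under the 3 scalings. In EGFP+ over double-negative cells it was 61.3% as deposited and 39.1%, 42.3% and 22.5%. In mCherry+ over EGFP+ cells it was 53.9% as deposited and 57.2%, 61.6% and 63.9%. Of the 39 members with an FPKM of 5 or a 4-fold ratio, 28, 26 and 33 kept their direction under all 3 scalings in these comparisons, in the order given. Those that did not are named where they are described. Values are as deposited unless a scaling is named.

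The RXRs, the common heterodimer partners, differed in composition between the libraries. Their summed FPKM was 174 in mCherry+, 98.2 in EGFP+ and 62.4 in double-negative cells. The gamma copy rxrga had an FPKM of 73.2 in mCherry+ and 29.5 in EGFP+ cells, against 3.45 in double-negative cells, log2 ratios of 4.06 and 2.78. Its mCherry+ over double-negative ratio ranked 240 of the 12285 tested genes from the top, and its EGFP+ over double-negative ratio ranked 565. Rescaling to the same FPKM sum took the EGFP+ ratio below 4-fold, to 1.86. It supplied 42.2% of the RXR sum in mCherry+ and 30.1% in EGFP+ cells, against 5.53% in double-negative cells. In mCherry+ cells rxrga was the second highest of all 57 genes, after nr1d2b.

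The alpha copy rxraa separated the reporter libraries from each other. It stood at 35.2 in mCherry+ and 2.56 in EGFP+ cells, against 10.7 in double-negative cells. The level in double-negative cells thus lay between those of the reporter libraries, with log2 ratios of 1.63 for mCherry+ and -1.72 for EGFP+ over double-negative. Both signs held under the 3 scalings, with a lowest mCherry+ ratio of 0.97, below 2-fold, at the same FPKM sum. In EGFP+ cells rxraa made up 2.60% of the RXR sum, against 17.2% in double-negative cells, and in mCherry+ cells it made up 20.3%.

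The other RXR genes varied less. The beta copy rxrba had 40.7 in mCherry+ and 44.6 in EGFP+ cells, against 23.5 in double-negative cells, and it was the largest RXR contributor in EGFP+ cells (45.4%). The EGFP+ over double-negative direction of rxrba turned under rescaling to the same FPKM sum (0.90 as deposited, -0.04 rescaled). Its duplicate rxrbb had 10.9 in mCherry+ and 14.4 in EGFP+ cells, against 13.3 in double-negative cells, and rxrgb had 10.3, 5.78 and 8.69 in the same order. The small ratios of rxrbb in EGFP+ cells (0.11) and of rxrgb in mCherry+ cells (0.23) over double-negative changed sign under at least 1 scaling. The second alpha copy, rxrab, reached at most 3.23.

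The retinoic acid receptors (RARs), which bind all-trans retinoic acid, summed to 33.6 in mCherry+, 74.6 in EGFP+ and 31.8 in double-negative cells. Most of the EGFP+ difference was raraa, a gene for RAR alpha, the receptor known in mammals for its part in granulocyte maturation. It had an FPKM of 3.36 in mCherry+ and 30.7 in EGFP+ cells, against 5.43 in double-negative cells. The EGFP+ level stood above both others, with a log2 ratio of 2.30 over double-negative cells, and the ratio of mCherry+ over EGFP+ was -2.86. It made up 41.1% of the RAR sum in EGFP+ cells, against 17.1% in double-negative cells. Under the 3 scalings the EGFP+ over double-negative ratio was 1.84, 1.91 and 1.38, below 4-fold. Neutrophil and lens marker sums were both highest in the EGFP+ library, and the part of either cell type in the raraa values was not tested.

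Its duplicate rarab had 11.5 in mCherry+ and 14.7 in EGFP+ cells, against 8.84 in double-negative cells. The gamma copy rarga had 13.0 and 26.4 in mCherry+ and EGFP+ cells, against 11.5, and rargb had 5.69 and 2.75, against 5.96. So rarga was highest and rargb lowest in the EGFP+ library. The ratio of rarab to double-negative changed sign under rescaling to the same FPKM sum in both reporter libraries. That of rarga in mCherry+ cells (0.16 as deposited) was -0.18 after median-ratio scaling and -0.46 at the same FPKM sum.

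**Figure D2:**
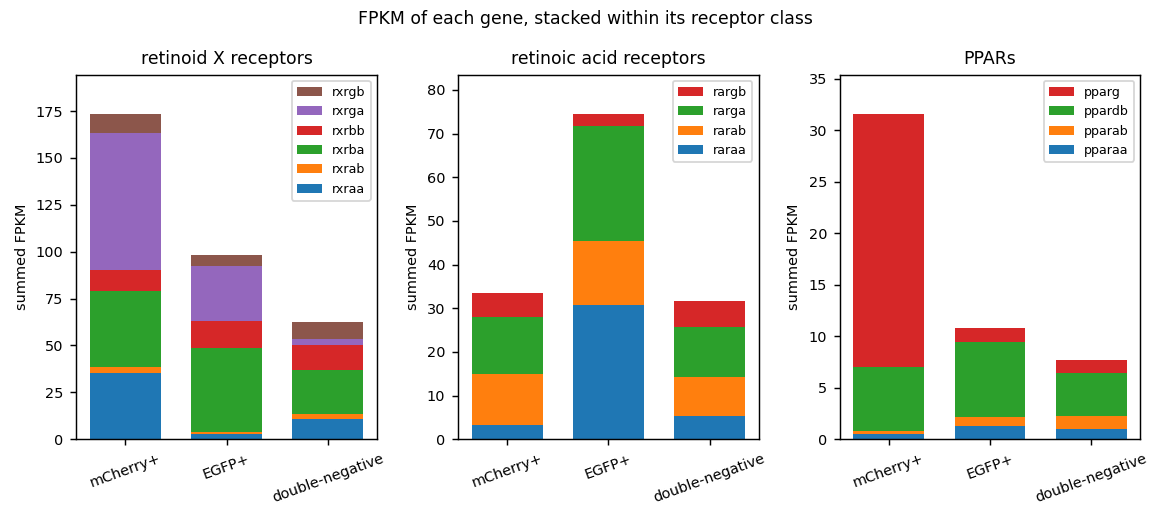
Summed FPKM of the RXRs (left), RARs (middle) and PPARs (right) in the mCherry+, EGFP+ and double-negative libraries, with each gene as a coloured segment. Segments of rxrga (73.2) and pparg (24.6) stand out in mCherry+ cells and that of raraa (30.7) in EGFP+ cells.

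Genes of the retinoid list were mostly highest in double-negative cells, 15 of 23 tested, against 40.9% of all tested genes. The list holds mainly genes that make, bind or clear retinoids, and also tgm2a and tgm2b. Of 23 tested members of the retinoid list, 1 was 4-fold or more higher and 3 lower by as much in mCherry+ than in double-negative cells (median log2 ratio -1.11), and 0 and 4 were in EGFP+ cells (median -0.94). For this and the later lists, the background over all tested genes was as follows. In mCherry+ over double-negative cells 8.18% were at least 4-fold higher and 7.36% lower (median -0.04). In EGFP+ over double-negative cells these were 8.53% and 5.38% (median -0.05). In mCherry+ over EGFP+ cells they were 3.90% and 3.34% (median -0.08). The retinol dehydrogenase gene rdh10b, of the first step from retinol towards retinoic acid, had 33.2 in mCherry+ and 8.60 in EGFP+ cells, against 5.97 in double-negative cells. The intracellular retinol-binding gene rbp2a had 37.0 and 2.21, against 22.1. The retinaldehyde dehydrogenase gene aldh1a2, of the last step, had 18.7 and 4.76, against 17.5. These 3 genes had the highest mCherry+ over EGFP+ ratios of the list and were named for that. Over the whole list, 1 gene was at least 4-fold higher and 1 lower in mCherry+ than in EGFP+ cells (median -0.18). The plasma retinol carrier gene rbp4, made mainly by liver, had 66.6 and 135, against 605 in double-negative cells. The retinoic acid hydroxylase gene cyp26a1 had 0.545 in mCherry+ and 1.74 in EGFP+ cells, against 7.65. Liver, neuronal, epidermal and erythroid marker sums were also highest in double-negative cells, and their part in these values was not tested.

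Among the peroxisome proliferator-activated receptors (PPARs), which bind fatty acids and their derivatives, pparg stood out in 1 library. In mammals PPAR gamma is known as the regulator of fat cell formation and of lipid handling in macrophages. Its FPKM was 24.6 in mCherry+ and 1.32 in EGFP+ cells, against 1.29 in double-negative cells. Its mCherry+ level gave log2 ratios of 3.48 over double-negative and 3.46 over EGFP+ cells, while that of EGFP+ over double-negative was 0.02, which turned negative under the 3 scalings. Over all 12285 genes, its ratio ranked 349 from the top against double-negative cells and 159 against EGFP+ cells. It made up 77.7% of the PPAR sum in mCherry+ and 12.2% in EGFP+ cells, against 16.8% in double-negative cells.

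The delta copy ppardb had 6.26 in mCherry+ and 7.29 in EGFP+ cells, against 4.16 in double-negative cells, and was the main PPAR transcript in EGFP+ (67.7%) and double-negative cells (54.0%). Its small differences between the libraries changed sign under at least 1 scaling in each comparison. The alpha copies pparaa and pparab, regulators of fatty acid oxidation, were at or below 1.26 in every library.

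Genes known as PPAR targets did not move as a block. Of 29 tested, 4 were 4-fold or more higher and 4 lower by as much in mCherry+ than in double-negative cells (median -0.13), 2 and 3 in EGFP+ cells (median -0.18), and 1 was at least 4-fold higher and 0 were lower in mCherry+ than in EGFP+ cells (median 0.13). The lipid droplet coat gene plin2 had 180 in mCherry+ and 88.4 in EGFP+ cells, against 4.53 in double-negative cells. The muscle-type carnitine palmitoyltransferase gene cpt1b had 29.2 and 3.30, against 2.42. The fatty acid-binding gene fabp11a had 25.6 and 6.12, against 3.94. In contrast, the gut and liver fatty acid-binding gene fabp1b.1 was low, with 2.25 and 2.98, against 76.8, and fabp2 had 1.79 and 2.86, against 24.96. The liver markers moved in that direction too (summed FPKM 79.0, 161 and 2033), and their part in it was not tested.

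The liver X receptor gene nr1h3, the oxysterol sensor of cholesterol efflux, was higher in mCherry+ cells. It had 21.9 in mCherry+ and 12.5 in EGFP+ cells, against 6.29 in double-negative cells, log2 ratios of 1.65 and 0.89. At the same FPKM sum these were 1.01 and 0.03, and the EGFP+ ratio was 0.46 after median-ratio and 0.52 after housekeeping scaling. The farnesoid X receptor gene nr1h4, a bile acid sensor of liver and gut, went the other way, with 0.604 in mCherry+ cells and listed at 0 in EGFP+ cells, against 4.71 in double-negative cells. All 11 liver markers were at least 4-fold lower in mCherry+ cells and 10 of them in EGFP+ cells, and their part in the nr1h4 values was not tested. The related nr1h5 reached at most 2.03.

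Among genes known as targets of these receptors, 4 of 15 tested were at least 4-fold higher and 0 lower in mCherry+ than in double-negative cells (median 0.25). In EGFP+ over double-negative cells 0 passed 4-fold in either direction (median 0.44), and in mCherry+ over EGFP+ cells 4 were higher and 0 lower (median 0.49). The cholesterol exporter gene abca1b had 121 in mCherry+ and 8.63 in EGFP+ cells, against 3.96 in double-negative cells. The apolipoprotein E gene apoeb had 1003 and 27.3, against 64.5. The lysosomal cholesterol transporter genes npc1 (271 and 32.7, against 18.0) and npc2 (711 and 158, against 50.2) followed the same order for mCherry+ cells. The phospholipid transfer protein gene pltp stood lower in both, with 2.43 and 2.37, against 9.37. The gene lpl was lower in both as well, with 15.4 and 8.65, against 28.7. At low levels, scd was past 2-fold higher in mCherry+ over double-negative cells (log2 ratio 1.42). Both cyp7a1a (-1.49) and fabp6 (-1.83, listed at 0 in mCherry+ cells) were past 2-fold lower. Genes of the list below 2-fold in that comparison included mylipa (-0.76), mylipb (0.25), srebf1 (0.47) and srebf2 (0.70). The higher genes thus did not stand for the whole list.

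The thyroid hormone receptors showed opposite orders. The alpha gene thraa had 23.6 in mCherry+ and 29.4 in EGFP+ cells, against 5.51 in double-negative cells, log2 ratios of 1.92 and 2.22. The beta gene thrb had 11.3 and 5.15, against 21.3, log2 ratios of -0.86 and -1.86. So thraa was lowest and thrb highest in double-negative cells, and both directions held under the 3 scalings, although the thraa ratio of EGFP+ cells was then 1.77, 1.83 and 1.30, below 4-fold. Skeletal muscle marker sums (3243, 4412 and 1678) ranked the libraries as thraa did. Housekeeping sums (3496, 3775 and 2679) did too, so this order was not particular to muscle. Of the 8 muscle markers, 6 were highest in EGFP+ cells, while acta1b was highest in mCherry+ and myod1 in double-negative cells. The part of muscle in the thraa values was not tested. The thyroid hormone list had 8 tested genes, of which 0 were at least 4-fold higher and 2 lower in mCherry+ cells (median -0.96), and 0 and 1 in EGFP+ cells (median -0.74). Its amino acid and thyroid hormone transporter gene slc16a10 had 109 in mCherry+ and 3.74 in EGFP+ cells, against 28.0 in double-negative cells.

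The vitamin D receptor gene vdra had 55.5 in mCherry+ and 18.0 in EGFP+ cells, against 28.2 in double-negative cells. It was thus highest in mCherry+ and lowest in EGFP+ cells, with a log2 ratio of 1.58 for mCherry+ over EGFP+. Its duplicate vdrb had 25.7 and 35.3, against 23.9, and its ratio to double-negative cells changed sign under scaling in both reporter libraries. The pregnane X receptor gene nr1i2, a sensor of foreign compounds, had 6.21 and 1.71, against 3.99, and its mCherry+ over double-negative ratio changed sign under rescaling to the same FPKM sum. Of 13 tested vitamin D and xenobiotic genes, 1 was at least 4-fold higher and 6 lower in mCherry+ cells (median -1.76) and 0 and 3 in EGFP+ cells (median -1.14). The vitamin D hydroxylase gene cyp24a1, a known target of the receptor, had 2.02 in mCherry+ and 2.95 in EGFP+ cells, against 15.6 in double-negative cells. The drug exporter gene abcb4 had 73.1 and 4.17, against 1.79.

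The clock-linked receptors, REV-ERB repressors (nr1d) and ROR activators, which bind the same DNA elements, differed in order. The REV-ERB gene nr1d2b had 84.9 in mCherry+ and 121 in EGFP+ cells, against 64.4 in double-negative cells. Its duplicate nr1d2a had 24.3 and 23.7, against 26.6. Its ratios to double-negative cells were -0.12 and -0.16 as deposited and -0.77 and -1.07 at the same FPKM sum. The lower nr1d1 had 6.57 and 1.84, against 2.35, so it was highest in mCherry+ cells (log2 ratio 1.18 over double-negative). The nr1d2b ratios to double-negative (0.39 and 0.90) changed sign under rescaling to the same FPKM sum.

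All 4 ROR genes were highest in double-negative cells. The alpha genes had 3.50 in mCherry+ and 3.68 in EGFP+ cells, against 12.9, for roraa, and 9.11 and 12.8, against 27.6, for rorab. The beta gene rorb, known from retina and brain, had 4.24 and 3.14, against 13.8. The gamma gene rorca had 9.26 and 11.5, against 14.9. Log2 ratios ran from -1.63 to -0.63 in mCherry+ and from -1.84 to -0.35 in EGFP+ cells, and each kept its sign under the 3 scalings. Neuronal markers were lower as well, past 4-fold in 6 of 6 tested in the mCherry+ and 4 of 6 in the EGFP+ library, and their part in the ROR values was not tested.

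Among 32 clock genes, 2 were at least 4-fold higher and 1 lower in mCherry+ than in double-negative cells (median 0.27), and 2 and 0 in EGFP+ cells (median 0.50). The clock repressor gene bhlhe40 had 67.7 in mCherry+ and 67.7 in EGFP+ cells, against 9.61 in double-negative cells. The bZIP repressor gene nfil3-6 had 65.4 and 225, against 34.6, while the related nfil3 had 8.24 and 31.9, against 35.3. The activator gene arntl1b, a BMAL1 copy, had 5.78 and 3.09, against 15.2. The other copy, arntl1a, went the opposite way, with 17.1 and 14.2, against 11.4.

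The COUP-TF receptors (nr2f), known for venous, cardiac and neural patterning, were with 1 exception, nr2f6a, highest in double-negative cells. The venous identity gene nr2f2 had 14.3 in mCherry+ and 13.5 in EGFP+ cells, against 51.8 in double-negative cells, log2 ratios of -1.78 and -1.86. For nr2f1a the values were 8.24 and 8.79, against 25.5, and for nr2f5 5.91 and 6.50, against 19.2. The reporter libraries were close to each other in these genes, and both lay below the double-negative library. The lower members nr2f1b (2.46 and 2.12, against 5.74) and nr2f6b (3.38 and 2.42, against 8.72) had the same order.

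The exception nr2f6a had 15.0 in mCherry+ and 17.0 in EGFP+ cells, against 10.8 in double-negative cells. Its ratios over double-negative (0.44 and 0.60) turned negative under rescaling to the same FPKM sum (-0.19 and -0.29). Of the 5 endothelial markers, cdh5, flt4 and kdrl were highest in double-negative cells, as most nr2f genes were, with a median log2 ratio over the 5 of -0.45 in mCherry+ and -0.35 in EGFP+ over double-negative cells. The other 2 were not: tek was at least 4-fold higher in mCherry+ and fli1a in EGFP+ than in double-negative cells. The marker sums were 26.3 in mCherry+, 76.5 in EGFP+ and 24.3 in double-negative cells, and fli1a alone had 65.0 of that in EGFP+ cells. The neuronal, epidermal (657, 1424 and 3847) and liver marker sums were highest in double-negative cells. The part of these cell types in the nr2f values was not tested.

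The testicular receptors nr2c1 and nr2c2, which repress embryonic globin genes in mammals, did not pass 2-fold in any comparison as deposited. The first had 10.0035 in mCherry+ and 15.7 in EGFP+ cells, against 13.6 in double-negative cells, and the second 10.3 and 13.8, against 10.1. Between the reporter libraries nr2c1 was lower in mCherry+ cells, at -0.60, a sign kept under the 3 scalings, and in mCherry+ over double-negative cells it was -0.41 as deposited and -1.01 at the same FPKM sum. The ratio of nr2c1 in EGFP+ cells (0.19) and those of nr2c2 in both reporter libraries (0.03 and 0.41) changed sign under at least 1 scaling. The photoreceptor gene nr2e3 had 2.85 in mCherry+ and 5.56 in EGFP+ cells, against 8.58 in double-negative cells. Photoreceptor markers summed to 69.1, 184 and 363 in the same order, so the libraries ranked alike, and their part in the nr2e3 values was not tested. The neural progenitor gene nr2e1 reached at most 4.61, in double-negative cells.

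Of the steroid receptors, the glucocorticoid receptor gene nr3c1 was well above the rest. It had 28.8 in mCherry+ and 50.7 in EGFP+ cells, against 26.9 in double-negative cells, and was the second highest of the 57 genes in EGFP+ cells. Its log2 ratios over double-negative were 0.09 and 0.89, and rescaling to the same FPKM sum gave -0.56 and -0.05. Between the reporter libraries it was lower in mCherry+ cells, at -0.79, which held under the 3 scalings. The mineralocorticoid receptor gene nr3c2 had 1.09 in mCherry+ and 1.96 in EGFP+ cells, against 5.54 in double-negative cells.

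The glucocorticoid and steroid list held genes far from level in both directions: of 26 tested, 5 were at least 4-fold higher and 4 lower in mCherry+ cells (median -0.22), and 6 and 2 in EGFP+ cells (median 0.28). It mixes glucocorticoid-linked genes with genes of steroid metabolism and does not separate genes raised by the receptor from genes lowered by it. Whether the receptor acts on the listed genes in these cells was not tested. Among the higher genes, il1b had 290 in mCherry+ and 787 in EGFP+ cells, against 1.61 in double-negative cells. The gene mmp13a had 26.0 and 3288, against 3.02, and is also on the neutrophil marker list. The metallothionein gene mt2 had 377 in mCherry+ and 20.1 in EGFP+ cells, against 15.5 in double-negative cells. The hsd3b7 gene, of bile acid synthesis from cholesterol, was higher in EGFP+ cells only (7.74 and 140, against 10.8). Also past 4-fold in both were cebpb (123 and 203, against 23.9) and sgk1 (191 and 248, against 45.7). The gene dusp1 (395 and 446, against 109) was past 4-fold in EGFP+ cells. Among the lower genes, anxa1b had 5.75 in mCherry+ and 11.3 in EGFP+ cells, against 41.5 in double-negative cells. The steroid synthesis gene star was listed at 0 in mCherry+ cells and had 0.823 in EGFP+ and 10.6 in double-negative cells. The co-chaperone gene fkbp5, a classical glucocorticoid receptor target, had 18.7 and 9.81, against 8.36.

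The estrogen-related receptor gene esrrga, an orphan receptor of oxidative metabolism, had the largest negative ratio of the members in mCherry+ over double-negative cells. It stood at 0.423 in mCherry+ and 0.728 in EGFP+ cells, against 8.39 in double-negative cells, log2 ratios of -2.72 and -2.44, which rank 263 and 283 from the bottom of 12285 genes. Its levels in both reporter libraries were below 1. Its duplicate esrrgb reached at most 1.37, and esrra at most 4.38. The estrogen receptor genes were low: esr1 reached 1.11 in mCherry+ cells and was listed at 0 in EGFP+ cells, and esr2a and esr2b stayed below 1 in every library.

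Of the NR5 group, nr5a1a, a steroidogenic factor 1 gene of adrenal and gonad, had 11.7 in mCherry+ and 10.7 in EGFP+ cells, against 6.17 in double-negative cells. Its ratio over double-negative held under the 3 scalings in mCherry+ cells and turned to -0.15 in EGFP+ cells under rescaling to the same FPKM sum. The liver and pancreas gene nr5a2 reached at most 3.20, in double-negative cells. The NR0 genes nr0b1 (DAX1) and nr0b2a (SHP), which lack the DNA-binding domain and act as repressors, reached 1.69 and 1.35, also in double-negative cells. The germ cell nuclear factor gene nr6a1b reached 1.43 in mCherry+ cells. In all, 5 members stayed below an FPKM of 1 in every library (esr2a, esr2b, nr5a1b, nr5a5 and nr6a1a), with highest values from 0.326 to 0.718. Of the symbols that are not receptors, thrap3b had 16.4 in mCherry+ and 20.4 in EGFP+ cells, against 11.3 in double-negative cells, with ratios over double-negative that changed sign under rescaling to the same FPKM sum, and nr2c2ap reached at most 3.71.

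**Figure D3:**
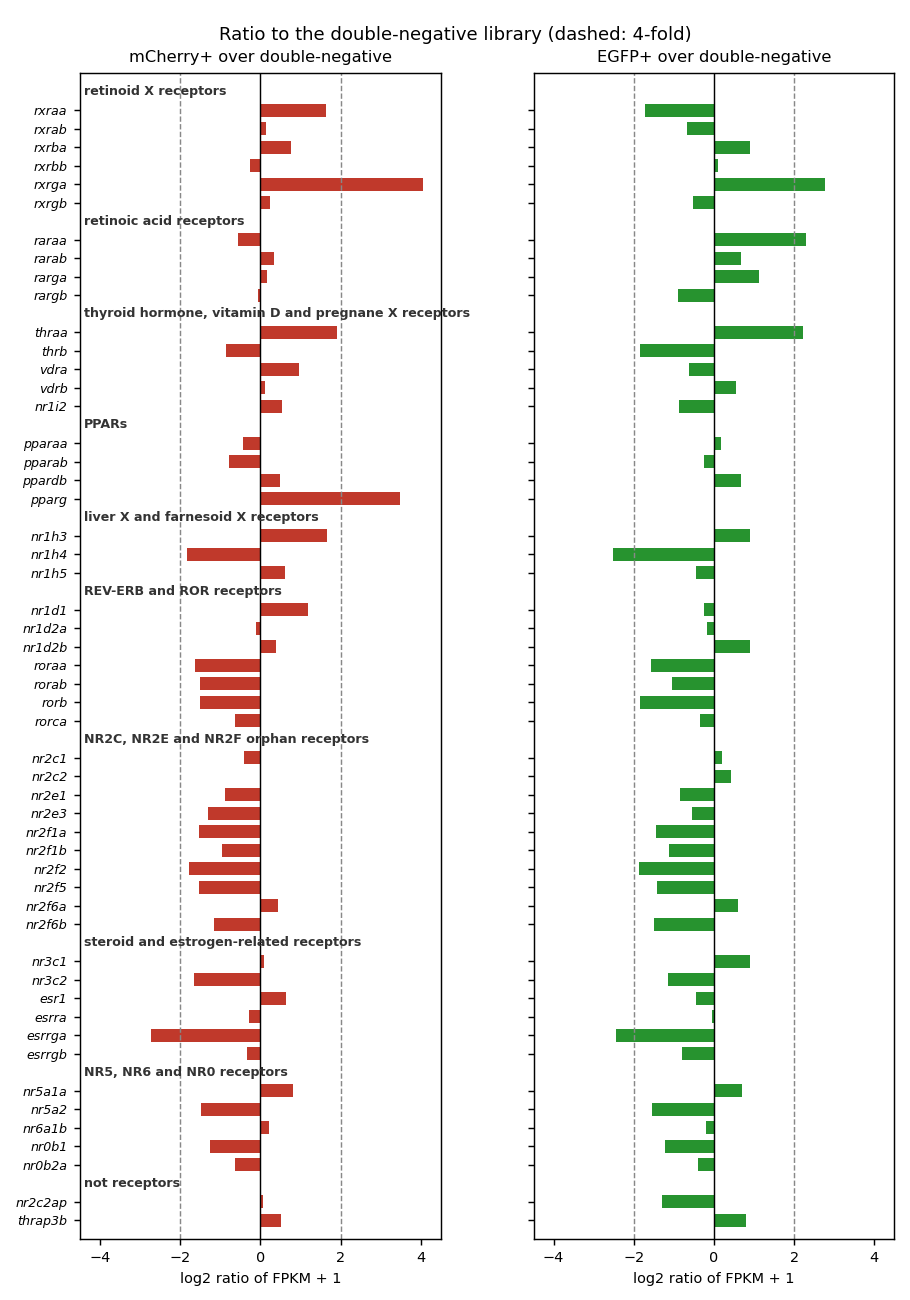
Log2 ratio of FPKM + 1 of the 52 tested genes, mCherry+ over double-negative on the left and EGFP+ over double-negative on the right, with dashed lines at 4-fold; both panels use the same double-negative library. Bars of the ROR and most nr2f genes point left in both panels, rxrga points right in both (4.06 and 2.78), and rxraa points right in mCherry+ (1.63) and left in EGFP+ cells (-1.72); the EGFP+ bars of nr1h4 and esr1 rest on a listed 0.

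The reporter libraries were also set against each other, a comparison without the double-negative library. In mCherry+ over EGFP+ cells 2 members were at least 4-fold higher, pparg and rxraa (3.85%, background 3.90%), and 1 was at least 4-fold lower, raraa (1.92%, background 3.34%). At 2-fold, 10 were higher (19.2%, background 12.0%) and 1 lower (1.92%, background 13.3%). The median log2 ratio was -0.04, against -0.08 over all tested genes. The rxraa ratio of 3.35 ranked 177 from the top of 12285 genes, and the raraa ratio of -2.86 ranked 189 from the bottom. The other members at least 2-fold higher in mCherry+ cells were vdra (1.58), nr1d1, nr1i2 (both 1.41), nr2c2ap (1.37), rxrga (1.28), esr1 (listed at 0 in EGFP+ cells), nr1h5 (1.05) and thrb (11.3 FPKM in mCherry+ and 5.15 in EGFP+ cells). The genes pparg, rxraa and raraa stayed past 4-fold under the 3 scalings, while rxrba, ppardb, roraa, nr2f1a, nr2f5 and nr2f6a, with ratios from -0.19 to -0.05, changed sign under at least 1. Of the neutrophil markers 6 of 7, and of the lens markers 5 of 5, lay 4-fold or more lower in mCherry+ cells.

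**Figure D4:**
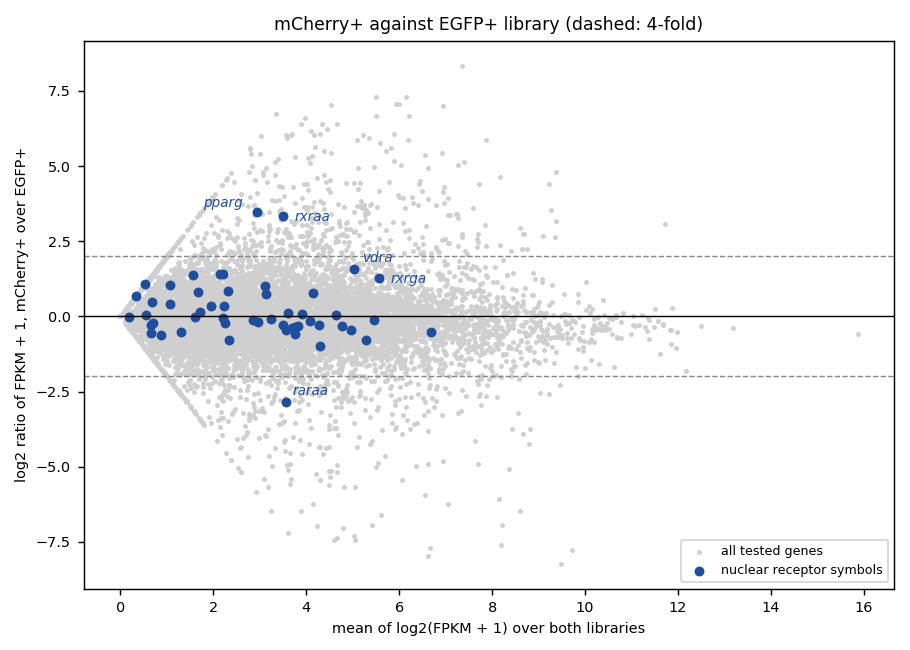
Log2 ratio of FPKM + 1 in mCherry+ over EGFP+ cells (vertical) against the mean of log2(FPKM + 1) over both libraries (horizontal), with all 12285 tested genes in grey and the 52 receptor symbols in blue. Above the upper dashed line (4-fold) lie pparg (3.46) and rxraa (3.35), below the lower one raraa (-2.86).

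Zebrafish keep many receptor genes as duplicates, named a and b. Of 15 such pairs among the members, 12 had both copies tested, and in 7 of these both copies were highest in the same library. The copies differed by at least 2-fold in their mCherry+ over double-negative ratio in 5 of 12 pairs, in EGFP+ over double-negative in 8, and in mCherry+ over EGFP+ in 4. Other gene pairs were not counted, so these counts have no background and no result about the receptors is read from them. Of single tested genes, 26.4% were highest in mCherry+, 32.7% in EGFP+ and 40.9% in double-negative cells. Some copies were low in every library, among them pparaa and pparab (at most 1.26) and esrrgb (at most 1.37), where the pseudocount understates ratios. The widest difference was between rxrga and rxrgb, 3.83 for mCherry+ over double-negative and 3.29 for EGFP+ over double-negative. The copies roraa and rorab, by contrast, differed by -0.13 in mCherry+ and -0.53 in EGFP+ over double-negative cells. How reads shared by copies were assigned is not given in the sources used here, so values of single copies carry that uncertainty.

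The superfamily also holds receptors under other symbols, which the rule did not take. The hepatocyte nuclear factor 4 genes hnf4a (0.642 in mCherry+ and 0.965 in EGFP+ cells, against 8.55 in double-negative cells) and hnf4b (1.23 and 0.239, against 9.10) were lowest in the reporter libraries, as liver markers were, and hnf4g reached at most 3.94 and was listed at 0 in mCherry+ cells. The androgen receptor gene ar had 0.772 in mCherry+ and 15.1 in EGFP+ cells, against 0.896 in double-negative cells. Its EGFP+ over double-negative log2 ratio was 3.09, above that of any of the 57 genes in that comparison. As for raraa, the part of neutrophils or lens cells in the ar values was not tested. The progesterone receptor gene pgr reached at most 4.89, in mCherry+ cells.

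Coregulators and chaperones are shared by the receptors. Of 34 coregulators listed, 19 were found by symbol or older symbol and tested, and none passed 4-fold in any of the 3 comparisons. Their median ratios to double-negative were 0.05 in mCherry+ and 0.38 in EGFP+ cells, and -0.15 between mCherry+ and EGFP+ cells. The housekeeping genes had medians of 0.12, 0.37 and -0.11 in the same order, and all tested genes -0.04, -0.05 and -0.08. The gene tbl1x, of a corepressor complex, had 32.1 in mCherry+ and 47.4 in EGFP+ cells, against 13.8 in double-negative cells. Of 15 chaperones of steroid receptor complexes, 1 was at least 4-fold higher in mCherry+ cells (median 0.90) and 1 in EGFP+ cells (median 1.04), in both cases stip1, the Hsp70-Hsp90 organizing protein gene (1222 and 1552, against 286), and 0 were lower.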

How the data were processed

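The authors deposited 1 table of FPKM values per gene and library; the submitters' processing notes name Cufflinks 2.2.1, TopHat2 2.0.11, cutadapt and the build danRer7; order, settings and annotation: not given in the sources used here. Per the labels' protocols, 50 ng of total RNA per library was depleted of ribosomal RNA and amplified with a low-input kit. Since FPKM is relative to the library, very abundant transcripts depress the values of the remaining genes.

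Genes were taken by symbol, 57 of 57 members matching a current RefSeq symbol of assembly GRCz12tu. Ratios (pandas 2.3.3, numpy 2.4.6) were computed over the whole table with a pseudocount of 1 and a minimum FPKM of 1 in a library. Steps of whole reads were searched among genes below an FPKM of 0.3 in both libraries of a pair; at most 14.0% lay within 0.05 (log2) of one ratio, so reads were not recovered and depth is unknown. The scatter of 46 housekeeping genes, as SD of log2 ratios of FPKM without a pseudocount, was 0.67 for mCherry+ and 0.67 for EGFP+ over double-negative, and 0.47 between the reporter libraries. The ratio and count steps were also run on simulated data, but the outcome is not given here and no result rests on it.

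Companion and marker lists held 367 entries, of which 296 matched by symbol and 26 by an older symbol. The members and lists were chosen with earlier results of these data known. Every member with an FPKM of 5 or a 4-fold ratio was named with its 3 values. From each companion list up to 3 highest and 3 lowest genes per comparison were eligible. The genes aldh1a2 and fkbp5 fall under this rule in mCherry+ over EGFP+ cells. The gene arntl1a was added outside the rule, beside its copy arntl1b. The genes scd, cyp7a1a, fabp6, cebpb, sgk1 and dusp1 were also added outside it, because they passed 2-fold or 4-fold. The alternatives were other pseudocounts, filters, scalings, thresholds and a member set without the symbols that are not receptors.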

Additional observations from a re-analysis of the deposited data

Results flagged for a closer look

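The RXR alpha gene rxraa was set apart because its ratios to the shared double-negative library had opposite signs, each past 2-fold: 1.63 on the log2 scale for mCherry+ cells and -1.72 for EGFP+ cells. At the same FPKM sum the mCherry+ ratio was 0.97, below 2-fold, and the EGFP+ ratio -2.34. With 1 library per population the difference was not tested. No other member met this condition. How many of all tested genes met it is not given here, so the finding has no background and may not be unusual.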

How the results depend on the processing

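No paired analysis was possible because each population has 1 library. Member counts past 4-fold moved with the settings, most of all those lower in the reporter libraries. For mCherry+ over double-negative, the 1 lower member became 5 with a pseudocount of 0.1, 0 with a pseudocount of 5, 0 with a minimum FPKM of 10, 2 after median-ratio scaling, 8 at an equal FPKM sum per library, 13 at 2-fold and 0 at 8-fold, and the 2 higher became 6 at 2-fold. In the EGFP+ library the 2 lower members became 8 with a pseudocount of 0.1, 0 with 5, 0 with a minimum FPKM of 10, 6 after median-ratio scaling, 6 after housekeeping scaling, 10 at the same FPKM sum, 16 at 2-fold and 0 at 8-fold. The 3 higher became 1 with a pseudocount of 5, 1 after median-ratio scaling, 1 after housekeeping scaling, 0 at the same FPKM sum and 0 at 8-fold. Between the reporter libraries, the 2 higher members became 5 with a pseudocount of 0.1 and 10 at 2-fold, and the 1 lower became 0 at 8-fold. The pseudocount and the thresholds change these counts by construction. So does the minimum FPKM of 10, which leaves out esrrga (highest FPKM 8.39) and nr1h4 (4.71). Each scaling multiplies all values of a library by the same factor, so members near the 4-fold limit can cross it. Which scaling is right for these libraries was not tested. The other 36 of 60 counts stayed within 1.5 times their main value, among them all without the filter on low values and all without the 2 symbols that are not receptors. Those settings could not change a count. A gene below an FPKM of 1 in every library cannot reach 4-fold with a pseudocount of 1. Neither of the 2 symbols passed 4-fold in any comparison. In the comparison in which it passed 4-fold, no member changed sign under the scalings. The pseudocounts and filters cannot change a sign. Depth is unknown, so no limit of detection is given for genes listed at 0.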
